A study of Mus musculus with 10 samples.

Results

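The transcripts described here encode complement components and the receptors for the anaphylatoxins: the C1q chains C1qa, C1qb and C1qc, the components C3 and C4b, the alternative pathway proteins Cfb and Cfp, and the receptors C3ar1 and C5ar1. A gene was taken when the name of its probe in the scanner files, or the current symbol of the accession beside that name, was one of these 9. They were 9 of 27670 genes on the array, measured by 11 of 41174 probes. C3 and C3ar1 had 2 probes each, and each gene was represented by the probe with the brighter mean lung signal.

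Whole lungs of female BALB/c mice were compared after 8 weeks of exposure to mainstream cigarette smoke or to room air, with 5 mice in each group. The mice were of 1 inbred strain and 1 sex, and the labels name no genetic change and give no age. The comparison asks how the lung's gene expression differs after smoke exposure. Each lung was hybridised to its own array against a second RNA, with lung in the red channel and the second RNA, called the reference below, in the green channel.

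Complement is a cascade of plasma and tissue proteins that tag and lyse targets and call in phagocytes. C1q starts the classical pathway by binding antibody or damaged surfaces, which leads to cleavage of C4 and then C3, while factor B and properdin drive the alternative pathway that amplifies C3 cleavage. The small fragments C3a and C5a are the anaphylatoxins, and they act on myeloid and other cells through C3ar1 and C5ar1; in the lung, macrophages make C1q, and epithelial cells and macrophages make C3 and factor B.

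Values are log2 ratios of red over green after background correction and loess normalization within the array, and a difference is smoke minus room air. Each difference was tested with limma over all probes, and a gene passed at a Benjamini-Hochberg adjusted p under 0.05. The authors' processed table of the same arrays has the groups exchanged: each of its 282045 values equals, within 0.0001, that of the array with the same number in the other group, and of the 9 genes 8 have the opposite sign in it, C5ar1 being the exception. Every direction below therefore rests on the scanner files' own assignment to samples and on the reading of red as lung. By that assignment Cyp1b1, Ahrr, Nqo1 and Aldh3a1, genes that tobacco smoke is known to induce, rose in red by 3.17, 2.08, 2.13 and 1.43; they were chosen after their values were seen. The reading of red was checked with other known genes. The Y-linked genes Ddx3y, Eif2s3y and Kdm5d were well above background in green on all 10 arrays, and in red on 2, 0 and 1 of them; the mice were female. The lung genes Sftpc, Scgb1a1 and Ager were brighter in red by at least 6.39, by 6.72 and by 4.83 on the log2 scale, the first being a lower bound since the red spot of Sftpc was saturated on smoke 3. What the green RNA is, the files do not state.

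Of the 9 genes, 6 passed the test, and all 6 were higher with smoke: C3, C1qb, Cfp, C1qa, C3ar1 and C1qc. Among all 27669 genes tested, 8.23% passed in either direction and 4.96% passed as higher with smoke. The same 6 genes had no overlap, with the lowest smoke array above the highest room air array, which held for 4.62% of all genes. The median log2 difference was 0.69 over the 9 genes and -0.0042 over all genes. C4b and Cfb were higher on average without passing, and C5ar1 did not pass. Over all genes 1371 were higher and 905 lower, a split that became 557 and 588 when each array's median ratio was set to 0 in place of loess. Each slide held the smoke array and the room air array of the same number, and with this pair as a block 8 of the 9 genes passed, C4b and Cfb being added, as did 3816 of all genes. These are bulk lungs, so that more cells of a type and more RNA per cell cannot be told apart.

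**Figure D1:**
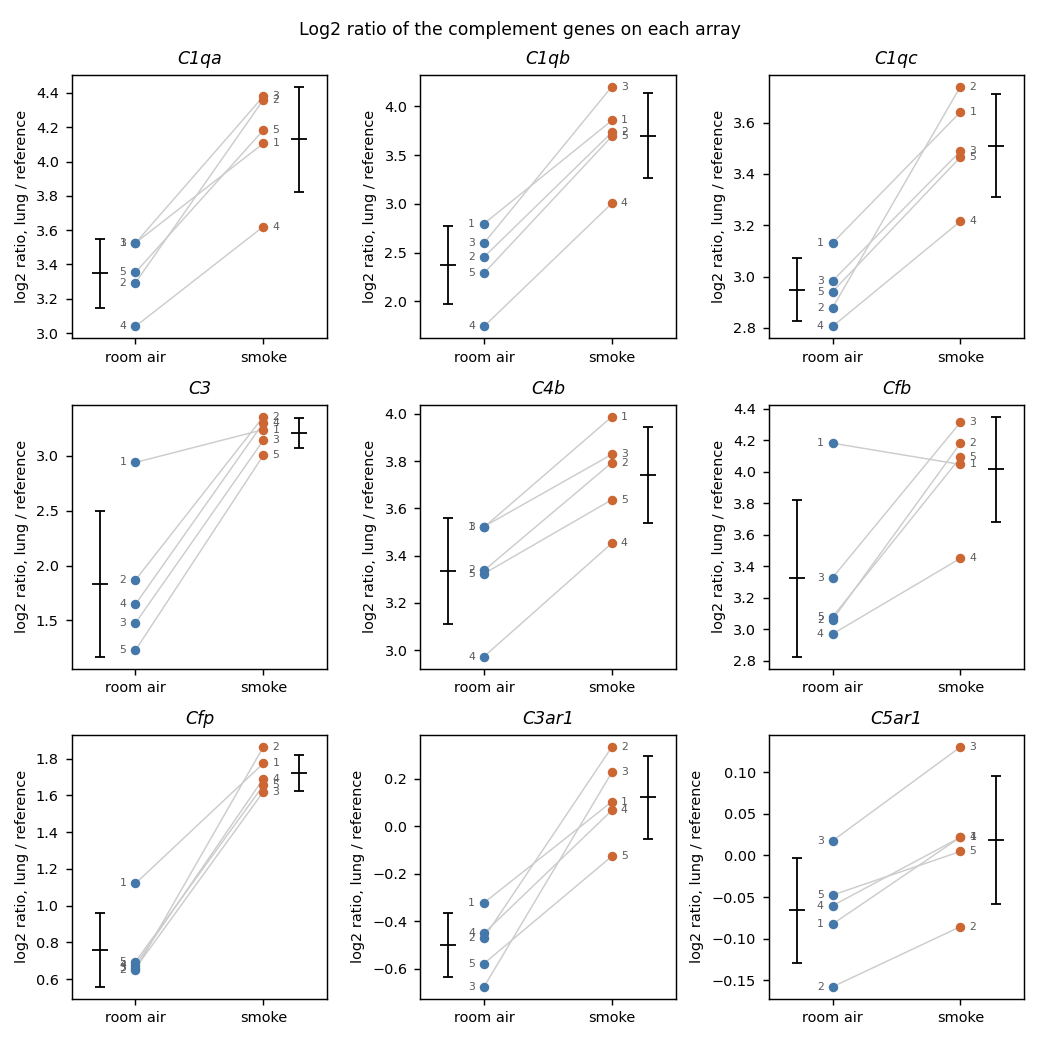
Log2 ratio of lung over reference for the 9 genes on each array, each gene by its brighter probe. Points are arrays with their number, grey lines join the arrays of a slide, and black bars are the mean and SD of 5 arrays. Smoke arrays lie above all room air arrays for C1qa, C1qb, C1qc, C3, Cfp and C3ar1, and room air 1 lies at 2.94 for C3 and 4.18 for Cfb, away from the other room air arrays.

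The array of room air 1 stood apart from the other room air arrays in several of these genes, and results that rest on it are given with and without it. On that array the ratio was 2.94 for C3, 4.18 for Cfb and 1.12 for Cfp, against highest values of 1.87, 3.33 and 0.70 on the other room air arrays. The mean ratios of the neutrophil and macrophage marker lists were also highest on it among the room air arrays, as described with the marker lists. The number of the 9 genes that passed was 8 without room air 1 and 7 without both arrays of slide 1, where 1723 and 1400 of all 27669 genes passed as higher and 1141 and 836 as lower, beside 1371 and 905 with all arrays.

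C1q is assembled from the chains A, B and C, and the probes of their genes lie within 15.9 kb of each other on chromosome 4 of mouse build mm7, the build named in the files, all on the minus strand. The probes of C1qa (chr4:136274931-136274990) and C1qb (chr4:136259100-136259159) are shown because the chains are related proteins read by separate probes. They are 60 bases each, in capitals since the whole probe hybridises.
C1qa: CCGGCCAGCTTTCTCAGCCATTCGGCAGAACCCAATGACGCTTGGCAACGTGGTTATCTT
C1qb: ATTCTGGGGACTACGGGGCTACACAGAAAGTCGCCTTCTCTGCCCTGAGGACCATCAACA
The longest run of bases that these probes share is 5, and the C1qc probe (chr4:136268288-136268347) shares 6 with each of them. Over all pairs of probes of different genes described here, C4a included, the longest shared run was 8 bases.

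C1qa encodes the A chain. Its log2 ratio was 3.53, 3.29, 3.52, 3.04 and 3.35 on room air arrays 1 to 5, and 4.11, 4.36, 4.38, 3.62 and 4.18 on smoke arrays 1 to 5. Every smoke array was above every room air array, and the lowest array of each group was number 4, from the same slide. The means were 3.35 ± 0.20 (SD, n = 5) and 4.13 ± 0.31 (SD, n = 5), a difference of 0.78 (SE 0.143) or 1.72-fold, with a limma adjusted p of 0.00633.

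C1qb, the B chain, had ratios of 2.80, 2.46, 2.60, 1.74 and 2.29 with room air and of 3.86, 3.73, 4.20, 3.01 and 3.69 with smoke. The groups did not overlap, and array 4 was again the lowest of both. C1qb rose by 1.32 (SE 0.227), which is 2.50-fold (limma adjusted p = 0.00428). Within the slides the smoke array exceeded its room air partner by 1.06, 1.28, 1.61, 1.26 and 1.40.

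For C1qc, the C chain, ratios were 3.13, 2.88, 2.98, 2.81 and 2.94 with room air and 3.64, 3.74, 3.49, 3.22 and 3.47 with smoke. The lowest smoke array was above the highest room air array by a small margin. The rise was 0.56 (SE 0.0953), or 1.48-fold, at a limma adjusted p of 0.00397. The 3 C1q differences were thus unequal in the ratio, while in the lung channel alone they were close to each other.

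In red alone, with background correction and quantile normalization between arrays, the differences were 1.84 for C1qa, 1.70 for C1qb and 1.82 for C1qc, with SEs of 0.0808, 0.0806 and 0.0881. Of the 9 genes 8 passed in red alone, the exception being C5ar1, while 6.67% of all genes passed there. The red signal of C1qa was 10.45, 10.46, 10.47, 10.49 and 10.56 with room air and 12.27, 12.56, 12.23, 12.13 and 12.48 with smoke. Room air arrays thus lay within a narrow range, far below the smoke arrays. The largest red adjusted p of the C1q genes was 1.49e-06 (limma, for C1qc).

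Green signals of C1qa and C1qc were higher on the smoke arrays as well. For C1qa the green signal was 6.70, 6.67, 6.64, 6.69 and 6.64 with room air, and 7.73, 7.66, 7.40, 7.87 and 7.78 with smoke. For C1qc it was 7.51, 7.45, 7.18, 7.35 and 7.45, and 8.43, 8.42, 8.52, 9.01 and 8.70. Neither gene's groups overlapped in green. The green differences were 1.02 for C1qa (limma adjusted p = 0.000481) and 1.23 for C1qc (limma adjusted p = 0.00302). They were the 2 of the 9 genes that passed in green alone, against 0.047% of all genes, which is 13 of them. With the software's processed green signal the differences were larger, 1.77 for C1qa and 1.60 for C1qc, and passed too. For C1qb the green difference was 0.32, it did not pass, and with the slide as a block it did (limma adjusted p = 0.0388, range over its 15 alternatives 0.0388 to 1). A ratio divides by green, so the C1qa and C1qc differences in the ratio were smaller than in red, and that of C1qb was closer to its red value.

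Over the whole array 14 probes, of 13 genes, passed in green, and all 14 also passed in red in the same direction. The count of genes was unstable, with 5 to 20 when 1 array was left out, 81 with the slide as a block and 5 with the processed signal, and 2 to 3 of the 9 genes passed in each fit without 1 array. By size of the rise in green these began with Retnla, which had 2 probes, then Ccl6, C1qc, C1qa and Itgax, and 3 of the genes, Gbp4, Hdc and Slc7a10, fell. Among the 172 genes that passed in red with a rise of over 1 and had signal well above background in both channels, the median green difference was 0.0586 and 19 exceeded 0.5. Cfb, C1qc and C1qa were the 5th, 6th and 7th of these 172 by green difference, while C3 had the lowest, -0.17. Most genes with a large rise in red thus had little difference in green, and C1qa, C1qc and Cfb were among those that had one. Whether signal of the lung RNA reached the green channel at these spots, or the green RNA differed between arrays, was not tested.

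**Figure D2:**
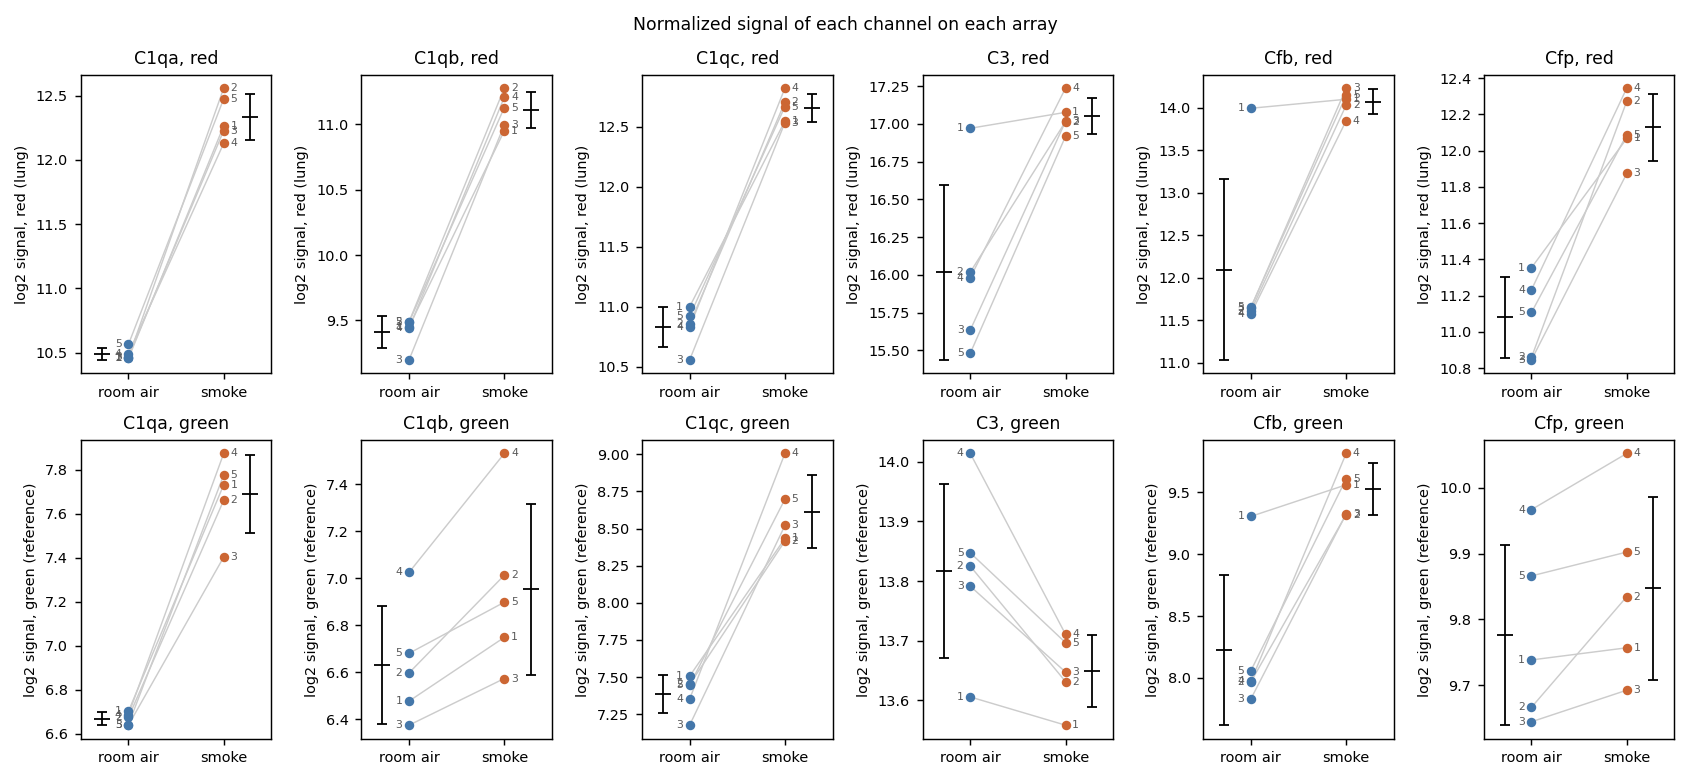
Normalized log2 signal of the red (lung) and green (reference) channel for 6 genes on each array, with the mean and SD of 5 arrays as black bars and grey lines joining the arrays of a slide. In red the C1q genes are separated by 1.70 to 1.84 between groups, and in green C1qa and C1qc are separated too, while C3 and Cfp differ by -0.17 and 0.0713 there.

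**Figure D3:**
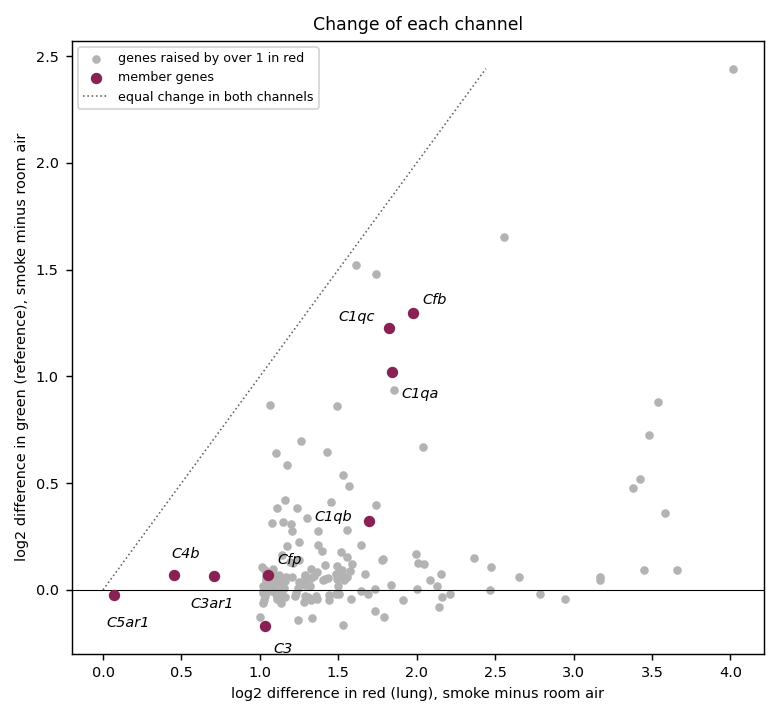
Difference in green against difference in red, both smoke minus room air on the log2 scale, for the 172 genes raised by over 1 in red (grey) and for the 9 genes described here (dark red). The dotted line marks equal change in both channels, and Cfb, C1qc and C1qa lie nearer to it than most grey points.

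With the scanner software's own ratio, the C1q differences were smaller and none of them passed: 0.19 for C1qa, 1.16 for C1qb and 0.28 for C1qc. In red alone with the software's processed signal all of the C1q genes passed, at 1.95, 1.83 and 1.87, and in green with that signal the differences were 1.77, 0.68 and 1.60. The software's ratio divides these signals, so the larger difference in green left less in the ratio. Values after normexp carry an added offset of 50, in the fitted ratio as in each channel apart. An added constant makes log2 differences of dim signals smaller. How much of the gap between the green differences of the processed signal and those after normexp comes from it was not tested.

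C3 is the component at which all pathways meet, and its cleavage gives C3a and C3b. Its brighter probe is printed at 10 spots, which were averaged. The ratio was 2.94, 1.87, 1.48, 1.65 and 1.23 with room air and 3.24, 3.36, 3.14, 3.30 and 3.01 with smoke. Smoke arrays lay close together, and the room air arrays were spread, with room air 1 near the smoke arrays and still below them. C3 rose by 1.38 (SE 0.258), or 2.60-fold, with a limma adjusted p of 0.00739, and without room air 1 by 1.65. In red the rise was 1.04 (limma adjusted p = 0.0273, range over its 15 alternatives 0.000158 to 0.19), and there the groups overlapped, since room air 1 at 16.97 was above smoke 5 at 16.92. The red call held when room air 1 or room air 4 was left out and was lost when any of the other 8 arrays was, with differences of 0.90 to 1.27 over the 10 fits.

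A second, dimmer probe of C3 is shown because it reads another stretch of the transcript, at chr17:55435522-55435679 on the minus strand of mm7. Its 60 bases span 158 bases of the genome, so that its target crosses at least 1 intron.
C3, dimmer probe: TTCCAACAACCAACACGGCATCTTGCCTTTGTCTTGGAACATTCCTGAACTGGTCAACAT
On this probe the ratio was 0.51, 0.57, 0.29, 0.84 and 0.13 with room air and 1.50, 1.63, 1.15, 1.44 and 1.78 with smoke. The groups did not overlap, and room air 1 was among the other room air arrays here. The rise was 1.03 (SE 0.141) in the ratio, at a limma adjusted p of 0.0011, and 1.13 in red. Both probes of C3 thus rose, and they differed in where room air 1 lay.

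C4b, the complement C4 that C1s cleaves in the classical pathway, lies on chromosome 17 beside its close relative C4a and beside Cfb. The probes of the 3 genes fall within 137.5 kb of mm7. The probe of C4b (chr17:32815561-32815620, minus strand) is set beside that of C4a (chr17:32912160-32912219, minus strand) because the files list 2 RefSeq accessions for each of these probes.
C4b: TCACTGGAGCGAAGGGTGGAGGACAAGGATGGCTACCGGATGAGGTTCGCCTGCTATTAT
C4a: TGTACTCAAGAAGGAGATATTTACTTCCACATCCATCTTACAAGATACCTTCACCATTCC
These 2 probes share no run longer than 5 bases. Whether transcripts of C4a bind the C4b probe cannot be told from the files, so the C4b values below are those of that probe.

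The ratio of C4b was 3.52, 3.34, 3.52, 2.97 and 3.32 with room air and 3.99, 3.79, 3.83, 3.45 and 3.64 with smoke. On 4 of 5 smoke arrays it was above all room air arrays, the exception being smoke 4. Its difference of 0.40 (SE 0.12), or 1.32-fold, missed the threshold, with a limma adjusted p of 0.0714. Within slides the difference was 0.47, 0.46, 0.31, 0.48 and 0.31, and with the slide as a block C4b passed (limma adjusted p = 0.00162, range over its 22 alternatives 0.00162 to 1). It also passed without room air 1, at 0.45, and without smoke 4, at 0.48. In red alone C4b rose by 0.45 (limma adjusted p = 0.0126) with groups that did not overlap, and its green difference was 0.0703. The C4a probe was well above background in red on 3 of 10 arrays, and its difference of 0.0916 did not pass.

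Cfb encodes factor B, the protease of the alternative pathway convertase. Its probe is shown because room air 1 stood apart in this gene, by the widest gap of the 9 genes in red; it lies at chr17:32952681-32953037 on the minus strand of mm7, where its 60 bases span 357, so that its target crosses at least 1 intron.
Cfb: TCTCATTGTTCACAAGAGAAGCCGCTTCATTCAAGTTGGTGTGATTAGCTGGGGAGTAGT
The ratio was 4.18, 3.06, 3.33, 2.97 and 3.08 with room air and 4.05, 4.18, 4.32, 3.45 and 4.09 with smoke. Room air 1 lay with the smoke arrays, and the other 4 room air arrays lay below all smoke arrays. With all arrays the difference was 0.69 (SE 0.229), or 1.62-fold, and it did not pass (limma adjusted p = 0.109). It passed with the slide as a block (limma adjusted p = 0.0357, range over its 22 alternatives 0.0032 to 1). Without room air 1 the difference was 0.91 and without both arrays of slide 1 it was 0.90, and it passed in both. With scaling between arrays it was 0.89 and passed.

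In red, Cfb was 13.99, 11.61, 11.64, 11.57 and 11.65 with room air and 14.10, 14.03, 14.23, 13.85 and 14.14 with smoke. The red signal of room air 1 was inside the range of the smoke arrays, and the other room air arrays were close to each other and far below. Cfb rose in red by 1.98 (SE 0.421), or 3.94-fold (limma adjusted p = 0.0201, range over its 15 alternatives 1.65e-07 to 0.19). This call held when room air 1, room air 4, smoke 2 or smoke 4 was left out, was lost when any of the other 6 arrays was, and the difference was 2.45 without room air 1. In green the values were 9.30, 7.97, 7.83, 7.97 and 8.06 with room air and 9.56, 9.32, 9.32, 9.81 and 9.61 with smoke. Room air 1 was thus high in green too, just below the smoke arrays. The green difference of 1.30 did not pass (limma adjusted p = 0.33), and it passed with the slide as a block (limma adjusted p = 0.0316, range over its 15 alternatives 0.000398 to 1), without room air 1, at 1.57, and without slide 1, at 1.56.

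Properdin, the product of Cfp, stabilises the alternative pathway convertase and is made mainly by myeloid cells. Its probe lies at chrX:19358766-19358825 on the minus strand of mm7. It is shown because Cfp had the smallest adjusted p of the 9 genes in the ratio without a block.
Cfp: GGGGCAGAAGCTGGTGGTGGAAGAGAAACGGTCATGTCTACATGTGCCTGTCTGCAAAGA
The ratio was 1.12, 0.65, 0.66, 0.68 and 0.70 with room air and 1.77, 1.86, 1.62, 1.69 and 1.65 with smoke. Room air arrays 2 to 5 were nearly equal, room air 1 stood above them, and all smoke arrays were higher still. Cfp rose by 0.96 (SE 0.0919), or 1.95-fold, at a limma adjusted p of 0.000101, and by 1.05 without room air 1. The rise was 1.05 in red (limma adjusted p = 0.000576), and green differed by 0.0713.

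C3ar1, the receptor for C3a, had ratios of -0.32, -0.47, -0.68, -0.45 and -0.58 with room air and of 0.10, 0.33, 0.23, 0.0674 and -0.13 with smoke. All smoke arrays were above all room air arrays, smoke 5 being the lowest of them. C3ar1 rose by 0.62 (SE 0.0902), which is 1.54-fold (limma adjusted p = 0.00159), and by 0.71 in red. Its red signal was dim, with a room air mean of 6.48 beside 6.22 for C5ar1, though well above background on every array. Sizes depended on the processing, with 1.47 in the scanner software's ratio and 1.52 in red with the processed signal, and both passed. Its dimmer probe was not well above background in red on any room air array and was so on all 5 smoke arrays. That gives a bound of at least 1.37-fold higher with smoke in red, taking on each room air array the higher of the probe's signal and the lowest signal among probes well above background, after loess and Aquantile. Lung was in red on every array, so the bound compares the groups within 1 dye. The fitted difference of that probe in the ratio passed too (limma adjusted p = 0.000821).

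C5ar1, the receptor for C5a, was near background. It was well above background in red on 9 of 10 arrays, and in green on 4. The ratio ranged from -0.16 to 0.0177 with room air and from -0.0856 to 0.13 with smoke, so the groups overlapped. Its difference of 0.0849 (SE 0.0516) did not pass (limma adjusted p = 0.464), and in red it was 0.0698. The smoke array exceeded its partner on each of the 5 slides, by 0.0525 to 0.11, and C5ar1 did not pass with the slide as a block either. It was 0.84 in the scanner software's ratio and 0.35 in red with the processed signal, and passed in neither. C5ar1 passed in none of its 22 alternatives, and the part of its low signal in this was not tested.

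The 9 genes did not move together from array to array in one way. After subtracting each group's mean, the log2 ratios over the 10 arrays had a Pearson r of 0.91 between C1qa and C1qb, 0.81 between C1qa and C1qc and 0.71 between C1qb and C1qc, with Spearman's rho of 0.73, 0.71 and 0.58. C4b followed C1qb at an r of 0.89, and in red alone this was -0.12. C3 followed Cfp at 0.87 and Cfb at 0.67, and without room air 1 these were 0.50 and 0.0647; in red alone they were 0.55 and 0.86. Arrays with the same number share a slide, so these values describe 10 arrays that are not independent. In red alone the r of C1qa and C1qb was 0.36 and that of C1qa and C1qc 0.0304, lower than in the ratio, while that of C1qb and C1qc was 0.86, higher than in the ratio.

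For each of the 8 genes with signal on all arrays, the 3 genes most like it in the same measure were taken from 13932 genes well above background. Their r lay between 0.95 and 0.99. C1qa was nearest to Zfp346, Sftpb and Serinc2, C1qb to Cfap53, Clec4a2 and Fgfr4, and C1qc to Ramp2, Ocel1 and Srpk1. For C3 these were Csf1, Lbp and Cish, of which Csf1 is the growth factor of macrophages and Lbp an acute-phase protein that binds lipopolysaccharide. C4b was nearest to Lhb, Ccdc33 and Pdp1, Cfb to P2ry6, Ndufaf4 and Adgrg1, Cfp to Rbbp8, Mirt1 and Pus7, and C3ar1 to Nek4, Tspan13 and Rpl37a. Of these 24 pairs, 4 had a partner that passed the test between groups: Clec4a2, higher by 0.70, P2ry6, higher by 0.91, Adgrg1, higher by 0.28, and Tspan13, lower, at -0.61. Without the 2 arrays farthest from the median of the member, the lowest r of the 24 pairs was 0.777. The pairs were picked for a high r among 13932 genes, so a high r is partly set by that choice. In red alone the sign turned for C1qb with each of its 3 partners, for C1qc with Srpk1 and for C4b with Lhb, and most other pairs weakened there, to 0.10 for C3ar1 with Rpl37a, 0.12 for C4b with Pdp1, 0.16 for C1qc with Ramp2 and 0.18 for C1qa with Sftpb. Within 0.1 of their r in the ratio were 4 of the 24, C1qa with Serinc2, C3 with Csf1, Cfb with P2ry6 and Cfp with Rbbp8. With scaling between arrays the sign turned for C3ar1 with Tspan13 and 12 other pairs weakened by over 0.1, as did 8 with median centring and 7 in the scanner software's ratio.

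Promoter sequences from RefSeq (build GRCm38.p6, 300 bases around the start site) were found for 6 of the 9 genes, all but C1qa, C4b and Cfb. Those of C1qb (chr4:136886151-136886450), C1qc (chr4:136892865-136893164) and C3 (chr17:57228087-57228386), all on the minus strand, are shown because these genes rose and each window held a match of a motif. The motifs searched, on both strands, were AGGAAGT for PU.1, a factor of myeloid cells, GGGANTTCC for NF-kB, GAAANNGAA for IRF factors and TTGCGNAA for C/EBP. Matches are in capitals, as read on the strand shown.
C1qb promoter: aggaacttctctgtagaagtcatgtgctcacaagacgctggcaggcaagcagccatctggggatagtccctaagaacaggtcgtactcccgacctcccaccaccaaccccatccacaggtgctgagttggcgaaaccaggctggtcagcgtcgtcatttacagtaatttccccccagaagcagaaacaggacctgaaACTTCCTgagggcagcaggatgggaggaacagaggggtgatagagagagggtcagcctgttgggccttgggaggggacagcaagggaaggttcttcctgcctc
C1qc promoter: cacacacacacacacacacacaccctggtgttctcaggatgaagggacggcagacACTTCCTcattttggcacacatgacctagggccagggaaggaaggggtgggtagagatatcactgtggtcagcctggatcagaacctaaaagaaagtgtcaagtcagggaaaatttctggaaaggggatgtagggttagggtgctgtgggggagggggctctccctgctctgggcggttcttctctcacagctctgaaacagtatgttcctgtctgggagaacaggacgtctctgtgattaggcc
C3 promoter: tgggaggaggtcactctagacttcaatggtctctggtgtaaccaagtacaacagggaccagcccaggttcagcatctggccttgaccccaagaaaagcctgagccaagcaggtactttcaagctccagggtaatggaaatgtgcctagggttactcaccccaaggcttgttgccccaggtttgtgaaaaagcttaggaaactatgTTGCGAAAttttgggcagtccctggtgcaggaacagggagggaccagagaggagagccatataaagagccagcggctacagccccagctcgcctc
The PU.1 letters began 53 bases before the start site in C1qb and 195 before it in C1qc, and the C/EBP letters began 45 before it in C3. The PU.1 motif was in 3 of the 6 promoters, those of C1qb, C1qc and C5ar1, and in 9.35% of all 32851 promoters in the table. The C/EBP motif was in 1 of 6 and in 0.798% of all. The IRF motif was in that of C5ar1, where it overlapped a PU.1 match, and in 8.56% of all, and the NF-kB motif was in none of the 6 and in 1.68% of all. A match describes these letters and shows no binding.

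The rest of the complement system was read from a list of 47 genes, of which 46 were measured, C1rb not being found, and 34 were well above background in red on all arrays. Of the 46, 5 rose, 1 fell and 40 did not pass, and the list's median difference was 0.0375 beside -0.0042 over all genes. The share that passed, 6 of 46, can be set beside the 8.23% of all genes. Most of the cascade outside the 9 genes thus showed no difference that passed the test. With the slide as a block 10 passed, 8 higher and 2 lower, which added Cd55, Itgam, Cpn2 and Vtn, while 3816 of all 27669 genes passed in that fit.

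Itgax and Itgb2 rose most of the list. They encode the alpha and beta chains of complement receptor 4, which binds cleaved C3 on myeloid cells. Itgax rose by 1.34 (SE 0.0599, limma adjusted p = 2.56e-07) and Itgb2 by 1.28 (SE 0.0703, limma adjusted p = 1.7e-06), each with all smoke arrays above all room air arrays. A second, dimmer probe of Itgax rose by less, 0.48, and passed too. Itgax also passed in green, at 0.67, and was the 1 gene of the list that did. Itgam, which pairs with Itgb2 in complement receptor 3, differed by 0.51 and did not pass, and it passed without room air 1, at 0.67. A second probe of Itgam differed by 0.34 and passed neither with nor without the slide as a block.

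C1ra and C1s1, the proteases that join C1q in the C1 complex, rose by 0.80 (SE 0.089, limma adjusted p = 0.000271) and 0.41 (SE 0.103, limma adjusted p = 0.0326). A second probe of C1ra rose by 0.63, and a second probe of C1s1 differed by 0.43 without passing. With the slide as a block this C1s1 probe passed (limma adjusted p = 0.0455). The C1s1 call was lost in 6 of the 10 fits that left out 1 array, those without room air 2, room air 4, smoke 1, smoke 3, smoke 4 or smoke 5, with differences of 0.35 to 0.43 in them. It was also lost with median centring, at 0.31, with the mean of the gene's probes, at 0.42, in red with the processed signal, at 0.39, and without slide 1, at 0.39. C1s2 was near background and differed by 0.0104. Fcna, a ficolin that starts the lectin pathway, rose by 0.42 (SE 0.0931, limma adjusted p = 0.0191), a call lost without smoke 1, at 0.40, or smoke 3, at 0.39, with median centring, at 0.34, and in red alone, at 0.46 with quantile normalization and 0.68 with the processed signal. Colec10, a collectin, fell by 0.31 (SE 0.0562, limma adjusted p = 0.00556), with all smoke arrays below all room air arrays. Its probe was well above background in red on all 5 room air arrays and on 4 smoke arrays.

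Genes of the later steps and the regulators did not pass in the ratio with all arrays and no block. C2, the protease that joins C4b, differed by 0.0965, and Hc, which encodes C5, by -0.11. C7, of the membrane attack complex, differed by -0.94 with an SE of 0.325. The C9, C8a and C8b probes were not well above background in red on any array. Among regulators, Cfi differed by 0.26, Serping1 by 0.0678 and Clu by 0.41. Cd55, which speeds the decay of convertases on cell surfaces, differed by 0.38 on its brightest probe and by -0.0177 and 0.0838 on 2 dimmer ones. The brightest passed in red alone, at 0.41, with scaling, at 0.52, with the filter on dim probes, at 0.38, and without room air 3, at 0.46, or smoke 5, at 0.44. Vtn, a regulator of the membrane attack complex, differed by -0.35 and passed as lower in red alone, at -0.67, and without room air 4, at -0.47. Cfd, the protease that activates factor B, differed by -0.20.

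**Figure D4:**
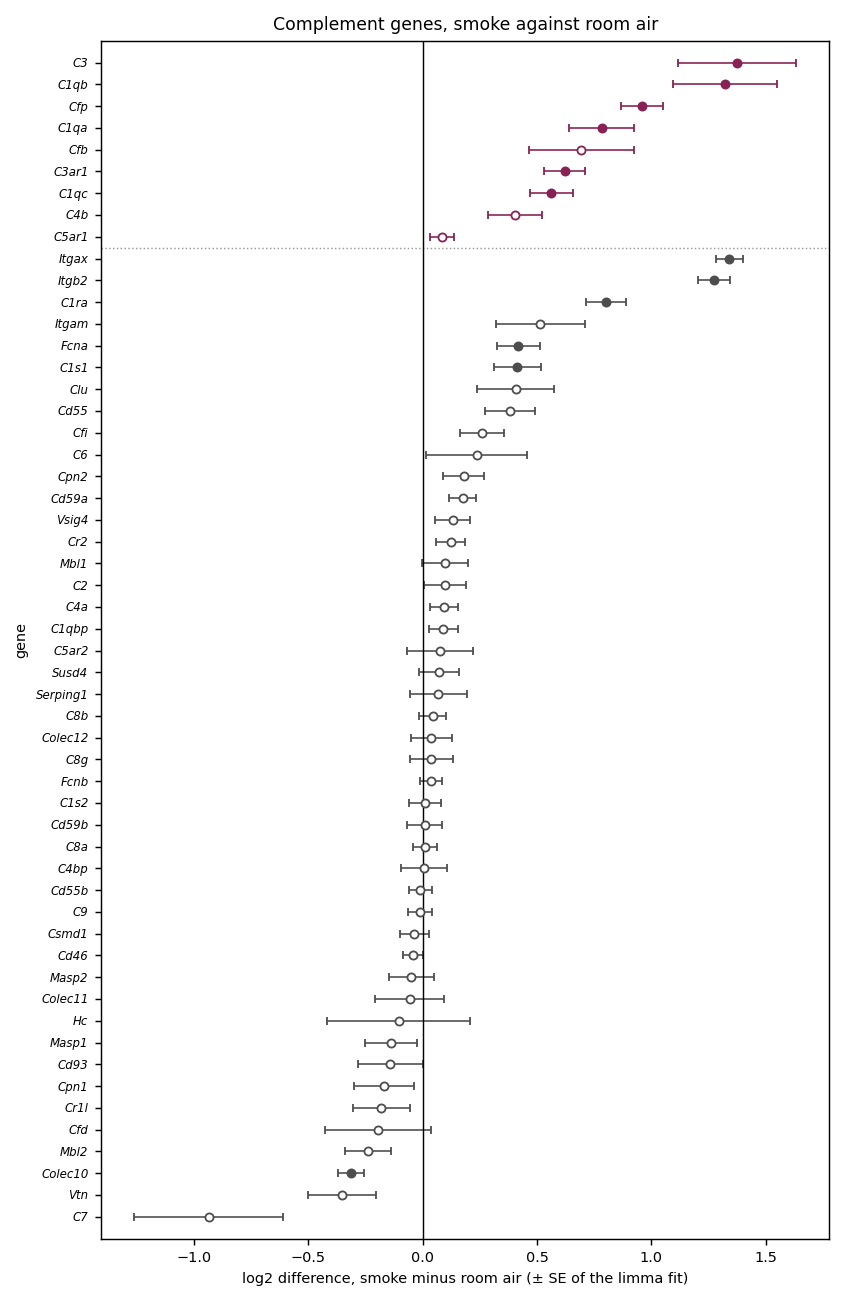
Log2 difference, smoke minus room air, of the ratio for the 9 genes (dark red, above the dotted line) and 45 of the 46 further complement genes (grey), with bars for the SE of the limma fit over 10 arrays. Filled points passed at an adjusted p under 0.05: 6 of 9 and 6 of 46, of which Colec10 was the 1 gene that fell.

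Markers of some lung cell types differed between the groups. Their counts can be set beside the 8.23% of all genes that passed in either direction and the 4.96% that passed as higher. Of 9 macrophage markers 6 rose and none fell, among them Cd68 (2.06), Adgre1 (1.39) and Mrc1 (1.14), while the brightest of them, Lyz2, differed by 0.18 and did not pass. Mertk differed the other way, by -0.22, and passed as lower with the slide as a block and in red alone, at -0.30; in red alone 4 of the 9 passed as higher and 1 as lower. The mean ratio of the 9 was 1.45, 0.98, 1.02, 0.97 and 0.96 on the room air arrays and 1.99, 2.08, 2.00, 2.05 and 1.93 on the smoke arrays. All smoke arrays were thus above all room air arrays, and room air 1 was the highest of its group. The room air SD of 1 of the 9 was 1.68, and that of each other marker was at most 0.33. How far the list mean on room air 1 rests on that 1 marker was not tested. Of 7 alveolar macrophage markers 3 rose, Marco (2.60), Chil3 (2.12, the brightest) and Pparg (0.78), with a list mean of 3.11 to 3.21 with room air and 3.75 to 4.14 with smoke. Of the same list Fabp1 differed by -0.66 and passed as lower with the slide as a block, and Ear1 differed by 0.0116. Of 8 markers of interstitial macrophages and monocytes 2 rose, Pf4 (1.06) and Cx3cr1 (0.89), Lyve1 being the brightest. The list mean was 1.71 to 2.16 with room air and 2.06 to 2.43 with smoke, so the groups overlapped. Tmem119 (-0.21) and Plac8 (-0.21) of this list differed the other way without passing. Without room air 1, 4 of the 8 passed, and with the block Folr2 (0.24) passed too. The part of macrophage number or kind in the results on the C1q genes, C3, Cfp and C3ar1 was not tested.

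Neutrophil markers set room air 1 apart as well. Of 10 measured, 2 rose, Mmp8 (1.16) and Camp (0.60), and the brightest, S100a9, differed by 0.16 and did not pass. Retnlg (-0.43), Mmp9 (-0.0907) and Ngp (-0.0592) differed the other way without passing. The mean ratio of the 8 with signal on all arrays was 3.74, 2.21, 2.28, 1.97 and 2.25 on the room air arrays and 3.14, 2.77, 2.96, 2.50 and 2.63 on the smoke arrays. Room air 1 was above all smoke arrays, and the other room air arrays were below all of them. Without room air 1, 4 of the 10 passed, and with the block Ltf (0.90) passed too. The Mmp8 call was lost when room air 2, room air 3, room air 5 or smoke 1 was left out, at 1.08 to 1.13. The part of neutrophils in the Cfb, C3 and Cfp values of room air 1 was not tested.

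Other lists moved less or the other way. None of 7 alveolar type 2, 4 club cell, 4 B cell and 4 T cell markers passed, nor any of 5 hepatocyte markers, of which Ttr was not well above background on any array. These lists were led in brightness by Sftpc, Scgb1a1, Cd79b, Cd3d and Ahsg. With the slide as a block, however, Sftpd (0.57), Scgb3a1 (0.47), Cd3d (0.35) and Cd3g (0.43) passed as higher, and in red alone so did Sftpd, at 0.86, and Scgb3a1, at 1.74. Of 6 fibroblast markers 2 fell, Pdgfra by 0.49 and Dcn by 0.49, while 3 were higher without passing, Col1a1 (0.25), Mfap5 (0.21) and Col1a2 (0.0687). The median difference of the fibroblast list was -0.0249. Of 5 endothelial markers 1 fell, Pecam1 by 0.41, and of 4 mesothelial markers 1 fell, Upk3b by 0.57. With the block all 4 mesothelial markers passed as lower, Msln (-0.33), Wt1 (-0.42) and Lrrn4 (-0.47) being added, as did Tek (-0.24) of the endothelial list, and in red alone Tek (-0.73) and Cldn5 (-0.82) passed as lower. The Pecam1 call was lost in 7 of the 10 fits that left out 1 array, holding without room air 1, room air 4 or smoke 3. It was also lost with scaling between arrays, at -0.28, with the scanner software's ratio, at -0.31, without background subtraction, at -0.39, with median centring, at -0.54, with the mean of the gene's probes, at -0.29, and without slide 1, at -0.45. The mean ratio of 2 hepatocyte markers with signal on all arrays was 1.87 on room air 3 and 2.52 on room air 5, against 0.31 to 0.42 on the other room air arrays and 0.56 to 0.90 on the smoke arrays. C3, which liver makes as well, was at 1.48 and 1.23 on room air 3 and 5, below the other room air arrays. Whether what raised the hepatocyte markers there had a part in the C3 values was not tested.

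**Figure D5:**
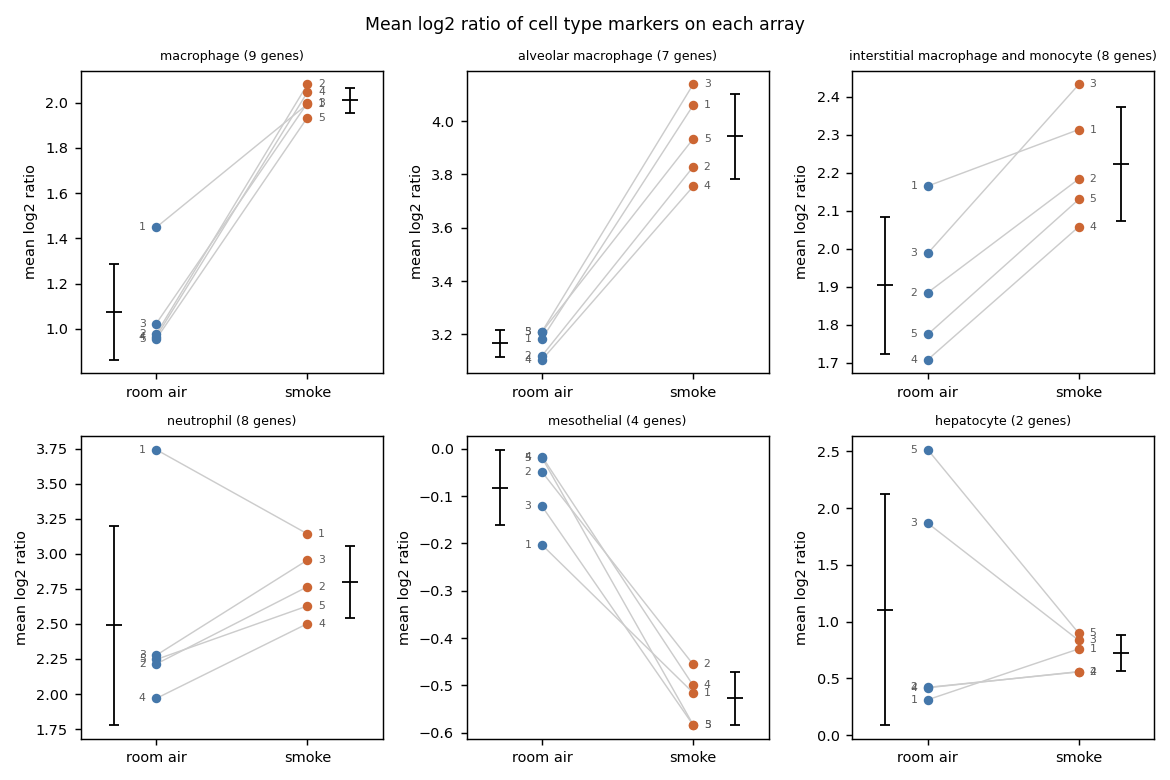
Mean log2 ratio of 6 marker lists on each array, with the mean and SD of 5 arrays as black bars and grey lines joining the arrays of a slide. Macrophage lists are higher on average with smoke, neutrophil markers are highest on room air 1 at 3.74, and hepatocyte markers are highest on room air 3 and 5.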

How the data were processed

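Lung RNA of 10 mice was measured on 10 two-channel Agilent arrays on 5 slides. The labels name 1 dye and a one-colour kit, while the files hold 2 channels. The intensity values are those deposited by the authors, mean spot signals and median local backgrounds from Agilent Feature Extraction (9.5.3.1 per the file headers, 9.1 per the labels). The software's log10 ratio of processed signals is as deposited by the authors too. The authors' table holds log2 values that equal the mean over both channels of log2 of median signal minus median background, with the groups exchanged; its scale, lack of centring and direction were found this way, and why the groups are exchanged is unknown. Its column medians were 7.99, 7.83, 7.32, 8.00 and 7.81 for columns named room air 1 to 5, and 7.93, 8.03, 7.79, 7.63 and 7.84 for smoke 1 to 5.

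Intensities were corrected with limma 3.58.1 in R 4.3.3 (normexp, offset 50) and normalized by loess within each array, for the channels apart by quantiles. Control spots and outlier spots were left out, and 43379 spots gave 41173 tested probes. Probes were named through RefSeq accessions (22951 probes), current symbols (6659) or synonyms (3109), and 8455 kept the name in the files. Two-sided tests used lmFit and eBayes, and p-values were adjusted across all tested probes by the Benjamini-Hochberg method (threshold 0.05). Between 64.9% and 77.5% of spots per array were well above background in red, and precision is limited by there being 5 arrays a group. Sequences were searched with Python 3.11.15 and figures drawn with matplotlib 3.10.9.

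The labels give both groups the numbers 1 to 5, and each slide held smoke in its first and room air in its second position, so slide and replicate number are the same block and position and group cannot be told apart. Deviations from group means correlated at 0.157 to 0.55 (median 0.46) between arrays of the same number and at -0.377 to 0.205 (median -0.124) between others. For numbers 2 to 5 each array correlated most with its partner. Smoke 1 correlated at 0.157 with room air 1 and at 0.205 with room air 3, so the pairing of number 1 rests on the slide alone.

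The genes named were the 9 genes, every gene of the complement list that passed or is described by its level, the 3 most alike genes per member, and marker genes where their list is described. The 9 genes, the lists and the motifs were chosen with earlier results of these data known. 1 gene of the complement list and 1 marker are not reported here. In all 12 alternatives were set out, and 1 more, without slide 1, was chosen after seeing the data.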

Additional observations from a re-analysis of the deposited data

Results flagged for a closer look

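In 102 groups of 5 arrays, 6 values lay far from the other 4 arrays of their group, by the gap to the nearest array over the group's range. Chance flags about 1 in 20 groups. Of the 6, 5 were on room air 1. The log2 ratio of Cfp was 1.12 on room air 1, with the nearest room air array at 0.70. Cfb on room air 1 had a red signal of 13.99, with the nearest at 11.65, and a green signal of 9.30, with the nearest at 8.06. On the same array the mean log2 ratio was 1.45 for macrophage markers, with the nearest at 1.02, and 3.74 for neutrophil markers, with the nearest at 2.28. On room air 3 the red signal of C1qb was 9.20, with the nearest at 9.44.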

How the results depend on the processing

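The 6 genes that passed kept call and direction with the block, in red alone, without background subtraction, with median centring, scaling, a filter on dim probes or the mean of a gene's probes, without each array in turn and without slide 1, which was chosen after seeing the data. Signal near background may limit C5ar1, C4a and both probes of C3ar1. The causes of the changes below were not tested, except that the authors' table has the groups exchanged and that the software's ratio divides by its green signal, which differed by 1.77 for C1qa, 0.68 for C1qb and 1.60 for C1qc. The smallest p of an exact Wilcoxon test of 5 against 5 is 0.00794, and after adjustment over all probes that test passed 0 genes in each count.

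With the replicate block, C4b (0.40) and Cfb (0.69) passed, as did C1qb (0.32) and Cfb (1.30) in green, which made 4 of the 9 genes there; it changed no other call among the 9 genes. The block passed 10 genes of the complement list, 3816 of all genes (2080 higher), 4127 in red and 81 in green. The scanner software's ratio passed 1195 of all genes as higher and 790 as lower, and 3 of the 9 genes; it lost C1qa (0.19), C1qb (1.16) and C1qc (0.28), and in it Vtn turned to 0.0759, Tek turned to 0.0604 and the markers Mrc1 (0.91), Cx3cr1 (0.43) and Mmp8 (1.67) did not pass. In red alone C4b and Cfb passed, at 0.46 and 2.08 with the processed signal, where Cd55 (0.50) and Vtn (-0.71) passed too and which passed 1356 of all genes (874 higher) and lost Camp (1.80), and at 0.45 and 1.98 with quantile normalization. Green processed signals passed 5 genes. Median centring passed 1145 of all genes, 557 higher. With scaling between arrays Cldn5 turned to 0.17. Cfb passed with scaling (0.89) and without slide 1 (0.90, and 1.56 in green).

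By the exact Wilcoxon test, the 9 genes, the complement list, all genes and those higher with smoke had 0 passes each in the ratio, as had the 9 genes and all genes in red and in green. At an unadjusted p under 0.05 it took 7 of the 9 genes, 11 of the complement list and 4039 of all genes in the ratio, 8 of the 9 and 3478 of all in red, and 3 of the 9 and 345 of all in green. The differences it did not pass were 0.78 for C1qa, 1.32 for C1qb, 0.56 for C1qc, 1.38 for C3, 0.96 for Cfp and 0.62 for C3ar1. In red they were 1.84, 1.70, 1.82, 1.04, 1.05 and 0.71 for the same genes, 0.45 for C4b and 1.98 for Cfb, and in green 1.02 for C1qa and 1.23 for C1qc.

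In the authors' table with columns by sample name, limma passed 2 of the 9 genes, 0 of the complement list and 12 of all genes, 0 of them higher, while 590 of all had an unadjusted p under 0.05. There the differences were -1.86 for C1qa, -1.26 for C1qb, -1.70 for C1qc, -0.48 for C3, -0.21 for C4b, -1.74 for Cfb, -0.50 for Cfp and -0.76 for C3ar1, and 0.35 for C5ar1, the 1 of the 9 that kept its sign. On the complement list they were -0.37 for C1ra, -0.12 for C1s1, -1.23 for Cd55, 0.72 for Colec10, -0.25 for Fcna, -2.01 for Itgam, -1.49 for Itgax, -0.72 for Itgb2 and 1.26 for Vtn. Markers were at -0.62 for Adgre1, -1.09 for Cd68, -0.93 for Chil3, -0.62 for Cx3cr1, 0.32 for Dcn, -2.58 for Marco, -1.29 for Mrc1, 0.29 for Pdgfra, 0.70 for Pecam1, -0.47 for Pf4, -0.42 for Pparg and 0.42 for Upk3b. They were at 0.31 for Mertk, -0.41 for Folr2, -0.91 for Ltf, -0.81 for Sftpd, -1.69 for Scgb3a1, -0.0039 for Cd3d, -0.0465 for Cd3g, 0.21 for Msln, 0.45 for Wt1, 0.36 for Lrrn4, 0.91 for Tek and 0.81 for Cldn5, and the genes that smoke induces were at -1.73 for Cyp1b1, -1.56 for Ahrr, -1.11 for Nqo1 and -1.41 for Aldh3a1.

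Leaving out 1 array in turn gave 0.31 to 0.48 for C4b, which passed without room air 1 or smoke 4, and 0.60 to 0.91 for Cfb, which passed without room air 1. In red it gave 0.90 to 1.27 for C3 and 1.85 to 2.45 for Cfb, and in green 1.20 to 1.57 for Cfb and 5 to 20 genes in all. The r between arrays in red alone turned to -0.33 for C1qb with Cfap53, -0.53 with Clec4a2 and -0.0055 with Fgfr4, -0.44 for C1qc with Srpk1 and -0.31 for C4b with Lhb, and with scaling to -0.0591 for C3ar1 with Tspan13.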
